A study of Mus musculus with 11 samples.

Results

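The vacuolar proton pump, or V-ATPase, was examined through 10 of its genes: Atp6v1a, Atp6v1b2, Atp6v1c1, Atp6v1e1, Atp6v1h, Atp6v0a1, Atp6v0c, Atp6v0d1, Atp6v0d2 and Atp6ap1. They were taken by symbol from a raw count table of 16934 genes, and all 10 passed the filter on low counts, among 11276 genes tested. The study sequenced RNA from primary microglia of C57BL/6 mice, the resident macrophages of the brain, prepared from pups of postnatal day 0 to 3, grown for 7 to 10 days and not passaged. Of 11 libraries, 4 held microglia alone, 3 came from 6 h co-cultures with untreated cortical neurons, and 4 from co-cultures of the same length with neurons that carried α-synuclein fibrils. The primary neurons were at day 14 in vitro, and the fibrils, labelled with Atto488, had been given at 0.1 µM for 16 h and washed off. The labels do not state how the microglia were parted from the neurons before RNA isolation. They also do not say whether the libraries of 1 group were separate cultures or animals, so p-values reflect sample-to-sample spread alone, and that spread may be technical.

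The pump turns the energy of ATP hydrolysis into proton transport across membranes. Its peripheral V1 sector hydrolyses ATP and turns a central rotor, and its membrane-bound V0 sector holds the ring that carries the protons. In microglia and other macrophages the pump acidifies endosomes, phagosomes and lysosomes, where acid-dependent hydrolases break down ingested protein and debris. The assembled pump also takes part in amino acid sensing by mTORC1 at the lysosome.

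Each library held 8253070 to 16802451 counts and 9157 to 11739 genes with a count. The summed level of 12 microglia and macrophage markers was 14495 to 16422 CPM (the count scaled to library size, as usual for sequencing) in microglia alone and 14451 to 19386 CPM in the 7 co-cultures, so the labelled cell type was well represented in every library. Neuron markers were higher in the libraries labelled microglia alone, to which no neurons were added. No gene in the design checks the group labels, and whether they hold was not tested, so every difference below takes them as deposited. The sum of 14 neuron genes was 1272 to 1528 CPM in microglia alone, 609 to 875 CPM with untreated neurons and 776 to 1183 CPM with fibril-loaded neurons. Most of that sum was Basp1, and the other neuron genes together gave 61.4 to 189.9 CPM in microglia alone against 0 to 46.1 CPM in the co-cultures. The synaptic gene Snap25 was at 0 in all 11 libraries. Astrocyte gene sums were 34.4 ± 15.6 CPM in microglia alone, 56.8 ± 41.8 CPM with untreated and 65.9 ± 43.7 CPM with fibril-loaded neurons. Oligodendrocyte gene sums were 226 ± 55.0, 298 ± 28.4 and 241 ± 81.5 CPM in the same order. Both overlapped between all groups. The ribosomal RNA precursor Rn45s took 19.4 ± 4.45% of counts (SD, n = 4) in microglia alone, and 12.6% with untreated and 12.8% with fibril-loaded neurons. The neuron sums and the Rn45s share moved with the same groups as the pump values below. Leaving Rn45s out of the fit changed no member's direction or call. That fit drops only the row of Rn45s, so it cannot show what its share means for other genes. The part of these measures in the pump values was not tested. In bulk RNA, fewer cells of a type and less RNA per cell cannot be told apart.

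Values of most pump subunits were lower beside neurons, by unequal amounts, and 1 passed the test. The 10 genes were chosen with earlier results of these data known, so counts set beside all genes, here and below, are descriptions. With both co-cultures averaged against microglia alone, 8 of the 10 genes had a negative log2 fold change, as did 54.9% of all genes tested. The median over the 10 was -0.54, against -0.09 over all genes tested and -0.03 over the 3111 genes averaging 50 CPM or more. In edgeR's quasi-likelihood test with Benjamini-Hochberg (BH) adjustment over all genes, 1 of the 10 was called lower at a threshold of 0.05 and 0 higher, where 0.426% of all genes were called lower. At an unadjusted p below 0.05, 5 of the 10 were lower, against 6.2% of all genes. CPM ranges of the 4 libraries of microglia alone and the 7 co-cultures lay apart for 2 members, Atp6v0a1 and Atp6v1a, both lower beside neurons, against 1.45% of genes that were lower in that way. DESeq2, run as an alternative, called 3 members lower, Atp6v0a1, Atp6v1a and Atp6v0c, against 2.49% of genes. These shares, here and below, are over all genes tested, most of which averaged under 50 CPM, while most members averaged more. For calls, p-values and ranges, no share over genes at the members' levels was computed. Library 1 of microglia alone held the highest level of 5 of the 10 genes. Of all libraries it also had the highest Rn45s share (24.8%) and the highest sum of neuron genes other than Basp1 (189.9 CPM). The part of these in its pump values was not tested. Without that library, 7 of 10 were negative, the median was -0.34 and no member was called.

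**Figure D1:**
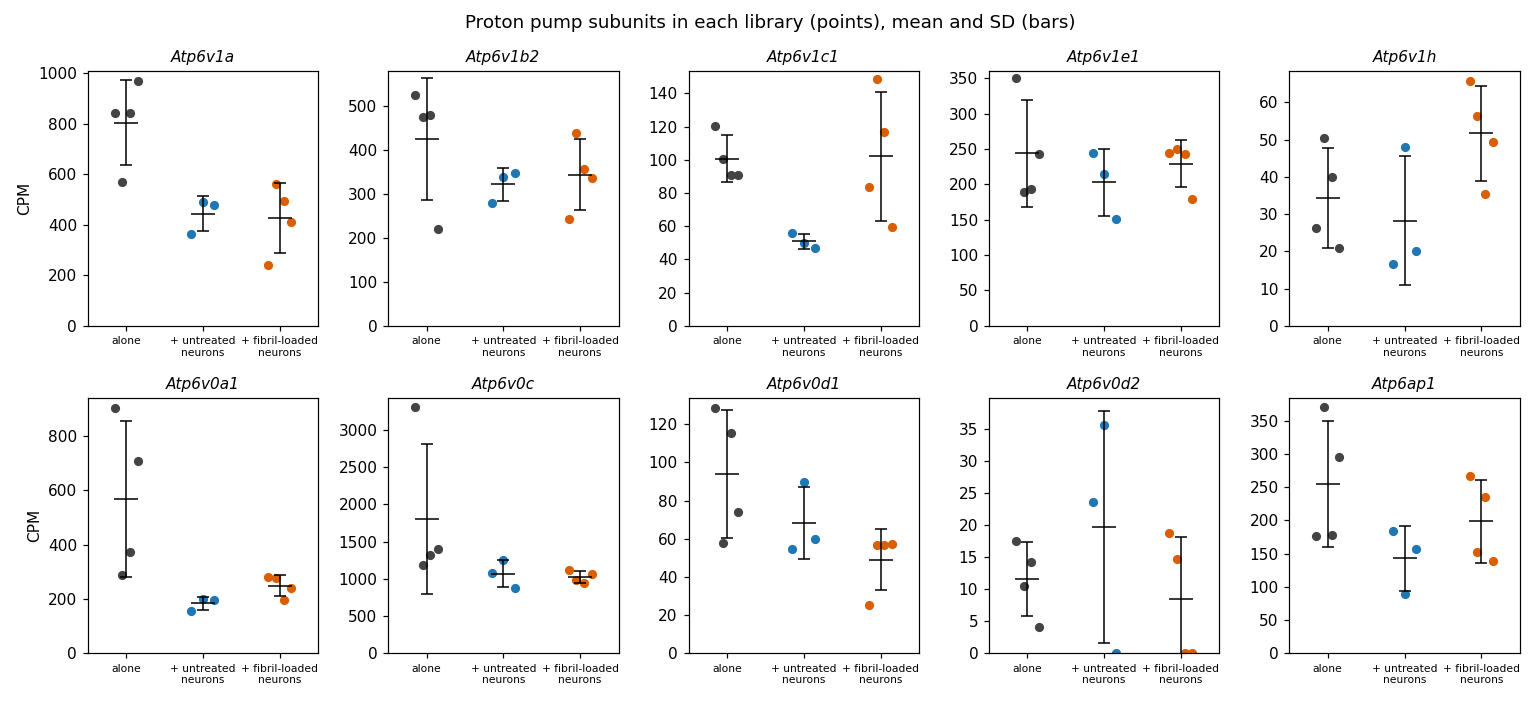
CPM of each pump gene (vertical axes, each from 0) in microglia alone, with untreated neurons and with fibril-loaded neurons; points are libraries and bars are mean and SD. Atp6v0a1 and Atp6v1a show no overlap between microglia alone and either co-culture, while Atp6v1e1, Atp6v1h and Atp6v0d2 overlap throughout.

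Atp6v0a1 was the member called, and it had the largest drop of the 10 in that average. It encodes the a1 isoform of the V0 subunit that forms the channels through which protons reach and leave the ring, an isoform abundant in nerve terminals, and it lies on chromosome 11 from 101009422 to 101063719 (RefSeq, GRCm38.p6, the same coordinates as mm10). The 4 libraries of microglia alone had 903, 289, 371 and 709.8 CPM. With untreated neurons the values were 156, 198 and 197 CPM, and with fibril-loaded neurons they were 280.3, 275, 196 and 239 CPM. All 7 co-cultures were thus below the lowest library of microglia alone, though library 2 of microglia alone, at 289 CPM, stood close to the upper fibril libraries, and the libraries of microglia alone spread widely. The neuron genes other than Basp1, summed, lay apart in the same direction (61.4 to 189.9 CPM against 0 to 46.1 CPM), and their part in the Atp6v0a1 values was not tested.

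From 568 ± 288 CPM (SD, n = 4) in microglia alone, Atp6v0a1 fell to 183 ± 24.2 CPM (n = 3) with untreated neurons, a log2 fold change of -1.63 (SE 0.35, edgeR BH-adjusted p = 0.0371). In that comparison 0.177% of genes were called lower. With fibril-loaded neurons it was at 248 ± 38.8 CPM (n = 4), a log2 difference of -1.20 (SE 0.32, edgeR BH-adjusted p = 0.139) that did not pass, and DESeq2 gave an adjusted p of 0.0147. Averaged over both co-cultures the log2 fold change was -1.42 (SE 0.27, edgeR BH-adjusted p = 0.0103), 2.67-fold lower. The averaged call was lost without library 1 of microglia alone (log2 -1.09, edgeR BH-adjusted p = 0.0806) and held in the 10 other fits that left out 1 library. The call against untreated neurons was lost in 5 of 7 such fits: without library 1 or 4 of microglia alone (edgeR BH-adjusted p = 0.11 and 0.0955), or without library 1, 2 or 3 with untreated neurons (0.171, 0.0775 and 0.111).

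The a subunit has other isoforms, which take the same place in the complex. Tcirg1, the a3 isoform found in osteoclasts and macrophage lysosomes, was at 232 ± 69.2 CPM in microglia alone, 289.9 ± 116 CPM with untreated neurons and 259 ± 38.5 CPM with fibril-loaded neurons. Its log2 difference over both co-cultures was 0.24 with a 95% interval of -0.31 to 0.78 (edgeR BH-adjusted p = 0.889). Atp6v0a2, the isoform best known from the Golgi and endosomes, was at 33.6 ± 13.5, 64.8 ± 51.6 and 40.2 ± 23.8 CPM in the same order (log2 0.60, edgeR BH-adjusted p = 0.801). Atp6v0a4, the kidney isoform, had no count in any library. Of the counts of a1, a2 and a3 together, a1 took 58.7 to 76.5% in the 4 libraries of microglia alone, 22.3 to 46.8% with untreated neurons and 35.1 to 51.2% with fibril-loaded neurons. These shares did not overlap between microglia alone and the co-cultures; they were computed after the values of Atp6v0a1 were seen and were not tested.

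**Figure D2:**
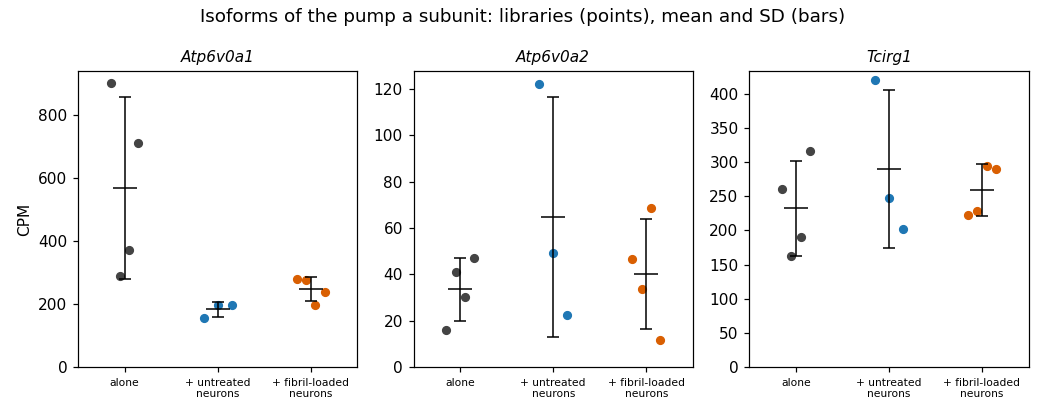
CPM of the a-subunit isoforms Atp6v0a1 (a1), Atp6v0a2 (a2) and Tcirg1 (a3) by group, each axis from 0; points are libraries and bars are mean and SD. Atp6v0a1 is lower in the 7 co-cultures than in the 4 libraries of microglia alone, while Atp6v0a2 and Tcirg1 overlap between all groups.

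Atp6v0c encodes the proteolipid of the rotating ring that carries protons. It was at 3307, 1180.2, 1324 and 1397 CPM in microglia alone, 1082, 1252 and 877 CPM with untreated neurons and 1122, 985, 944 and 1060.2 CPM with fibril-loaded neurons. One library of microglia alone stood far above the rest, and the remaining libraries of microglia alone lay close to the co-cultures. The log2 difference over both co-cultures was -0.78 (SE 0.26, edgeR BH-adjusted p = 0.178; DESeq2 adjusted p = 0.034). Without library 1 of microglia alone it was -0.30 (edgeR BH-adjusted p = 0.786). The pseudogene Atp6v0c-ps2 is counted in its own row and could share reads with Atp6v0c; it held 0.361 to 11.4% of the counts of both rows together, with no group apart from the others.

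The d subunit couples the ring to the rotor and has 2 isoforms in the list. Atp6v0d1, the widely expressed one, was at 129, 57.9, 115 and 73.9 CPM in microglia alone, 54.7, 89.8 and 59.7 CPM with untreated neurons and 25.3, 56.8, 56.8 and 57.2 CPM with fibril-loaded neurons. The fibril libraries all lay below microglia alone, by a narrow margin for 3 of them, and the untreated libraries overlapped with it. The log2 differences were -0.46 (SE 0.42, edgeR BH-adjusted p = 0.864) with untreated and -0.94 (SE 0.39, edgeR BH-adjusted p = 0.539) with fibril-loaded neurons, and neither passed. Atp6v0d2, the isoform known from osteoclasts and some macrophages, was scarce: 4.01 to 17.5 CPM in microglia alone, 23.7, 35.7 and 0 CPM with untreated neurons and 18.9, 14.7, 0 and 0 CPM with fibril-loaded neurons. A count of 0 in those 3 libraries allows up to 0.178, 0.281 and 0.199 CPM (3 counts, for counting error only), and both co-culture groups held libraries with and without it. Its 95% interval over both co-cultures ran from -2.89 to 3.19 on the log2 scale, too wide to show a direction at this depth and spread.

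In the V1 sector, the gene of the catalytic A subunit, which binds and hydrolyses ATP, had the most negative value over both co-cultures. Atp6v1a was at 842, 569, 842 and 968 CPM in microglia alone, 365, 492 and 478 CPM with untreated neurons and 239.97, 563, 493 and 410.04 CPM with fibril-loaded neurons. Every co-culture library was below every library of microglia alone, with the closest pair at 563 and 569 CPM. The log2 difference was -0.86 (SE 0.30, edgeR BH-adjusted p = 0.292) with untreated neurons, -0.92 (SE 0.28, edgeR BH-adjusted p = 0.227) with fibril-loaded neurons and -0.89 (SE 0.24, edgeR BH-adjusted p = 0.087) over both. It did not pass in edgeR, and DESeq2 gave adjusted p-values of 0.0582, 0.029 and 0.00654. Without library 1 of microglia alone the value over both was -0.86, so unlike Atp6v0c its size did not rest on that library.

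The ranges of Atp6v1c1 lay apart between the co-cultures without passing the test. It encodes the C subunit of the peripheral stalk, which leaves the pump when V1 detaches from V0. Its levels were 121, 101, 90.6 and 90.8 CPM in microglia alone and 56.0, 49.8 and 46.9 CPM with untreated neurons, with no overlap. With fibril-loaded neurons they were 83.6, 149, 117 and 59.6 CPM, spanning the range of microglia alone and lying above every untreated library. The log2 difference was -0.98 (SE 0.37, edgeR BH-adjusted p = 0.334) for untreated neurons against microglia alone and 1.00 (SE 0.37, edgeR BH-adjusted p = 1) for fibril-loaded against untreated neurons, and neither passed over all genes. For fibril-loaded neurons against microglia alone it was 0.02 (95% interval -0.67 to 0.71).

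The other V1 genes overlapped between all groups. Atp6v1b2, the widely expressed B isoform that completes the catalytic hexamer, was at 425 ± 138 CPM in microglia alone, 322 ± 37.2 CPM with untreated neurons and 344 ± 80.6 CPM with fibril-loaded neurons, for a log2 difference over both of -0.36 (edgeR BH-adjusted p = 0.681). Atp6v1e1, a peripheral stalk subunit, was at 244 ± 75.4, 203 ± 47.6 and 229 ± 33.1 CPM, a log2 difference over both of -0.18 with a 95% interval of -0.69 to 0.34. Its 3′ end overlaps that of Slc25a18 on the other strand by 32 bases in GENCODE M21, and whether strand was used in counting is not given in the sources used here. Atp6v1h, the regulatory H subunit that holds ATP hydrolysis in check when V1 is detached, was at 34.4 ± 13.4, 28.3 ± 17.3 and 51.7 ± 12.8 CPM, with a log2 difference over both of 0.15 (edgeR BH-adjusted p = 0.992739). Atp6ap1, the accessory protein Ac45 that aids assembly of V0, was at 177, 370.4, 178 and 295 CPM in microglia alone, 183, 88.7 and 157 CPM with untreated neurons and 267, 152, 235 and 139.5 CPM with fibril-loaded neurons. Its groups overlapped, and the log2 difference over both was -0.60 (SE 0.29, edgeR BH-adjusted p = 0.441).

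**Figure D3:**
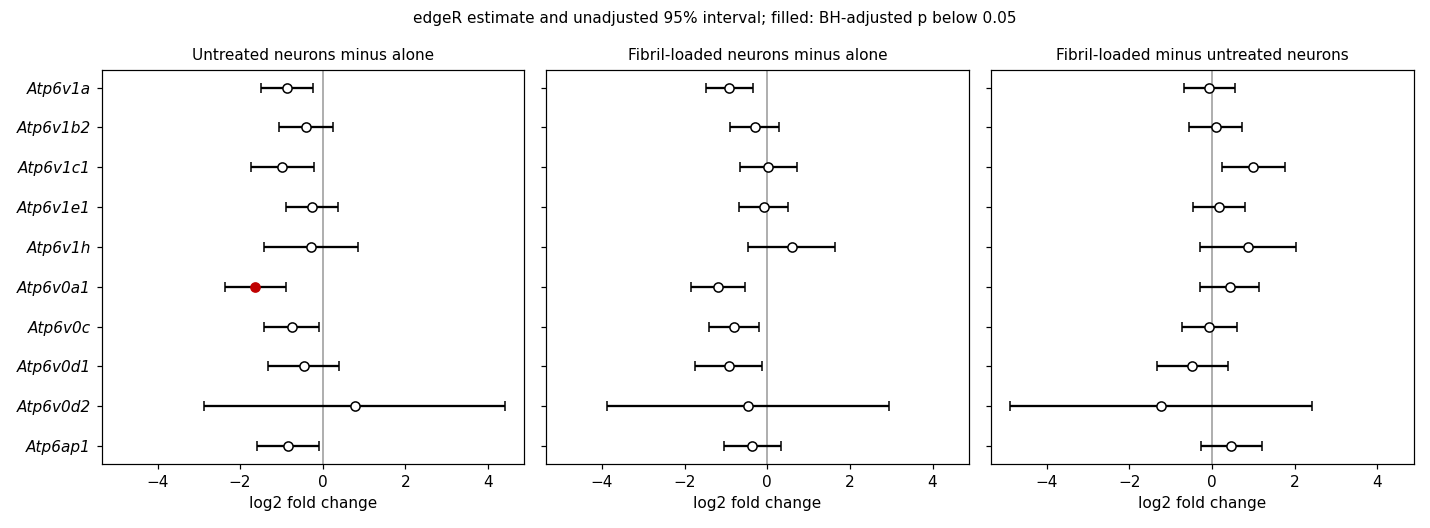
Log2 fold change (horizontal axis) of each pump gene in 3 comparisons, with the unadjusted 95% interval from edgeR's standard error; filled points passed the BH-adjusted threshold of 0.05 over all genes. For untreated neurons minus microglia alone, 9 of 10 estimates are below 0 and Atp6v0a1 at -1.63 is filled; in the fibril comparison against untreated neurons the estimates lie on both sides of 0.

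The comparisons of each co-culture with microglia alone share the same 4 control libraries, so their values are given side by side only. With untreated neurons 9 of the 10 genes were negative (52.3% of all genes tested) with a median of -0.61. In edgeR 1 was called lower, as were 0.177% of genes, and 5 were lower at an unadjusted p below 0.05, against 5.67% of genes. Ranges lay apart, with the co-culture lower, for 3 members, against 5.45% of genes, and DESeq2 called 1 lower, against 2.7% of genes. With fibril-loaded neurons 8 were negative (52.1% of all genes) with a median of -0.41. In edgeR 0 members were called, where 0.0532% of genes were called lower, and 4 were lower at an unadjusted p below 0.05, against 3.89% of genes. Ranges lay apart, with the co-culture lower, for 4 members, against 2.9% of genes, and DESeq2 called 2 lower, Atp6v0a1 and Atp6v1a, against 0.971% of genes. Fibril-loaded against untreated neurons gave 4 negative members, where 50% of all genes were negative, 6 positive ones and a median of 0.13, beside 0.00 over all genes. No member was called by edgeR or DESeq2 in that comparison, in which edgeR called 0% of genes and DESeq2 1.7%; 1 member, Atp6v1c1, was higher at an unadjusted p below 0.05 with ranges apart; 2.64% of genes were higher at that p, and 4.7% had ranges apart in either direction. Without library 1 of microglia alone the medians were -0.34 for untreated and -0.26 for fibril-loaded neurons; the fibril median was also -0.64 without library 4 of microglia alone, and -0.63 and -0.26 without fibril libraries 1 and 4. Between the co-cultures the median was 0.08 without untreated library 3 and 0.05 without fibril library 2. The 95% interval of the difference between co-cultures was -0.28 to 1.14 for Atp6v0a1 and -0.68 to 0.56 for Atp6v1a, so the data allow differences of either sign within those bounds.

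The number of subunits with a high level varied from library to library within each group. Library 1 of microglia alone had 8 of 10 genes above their own median over the 11 libraries, and libraries 2, 3 and 4 of that group had 7, 5 and 7. With untreated neurons 3, 4 and 1 genes were above their median, and with fibril-loaded neurons 5, 6, 3 and 1. Fibril libraries 1 and 2, with 5 and 6 high genes, thus overlapped with microglia alone, while fibril library 4 had 1. Over the 45 pairs of members, log2 CPM across the 11 libraries correlated positively for 36 pairs with a median Pearson r of 0.19, where 49.7% of all pairs of genes of at least 50 CPM were positive with a median of -0.0029. After each group's mean was taken out, 27 of 45 pairs (60%) were positive with a median of 0.10, against 49.8% and a median of -0.0024 for those genes. These coefficients describe libraries that share depth, scaling and groups and carry no test.

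**Figure D4:**
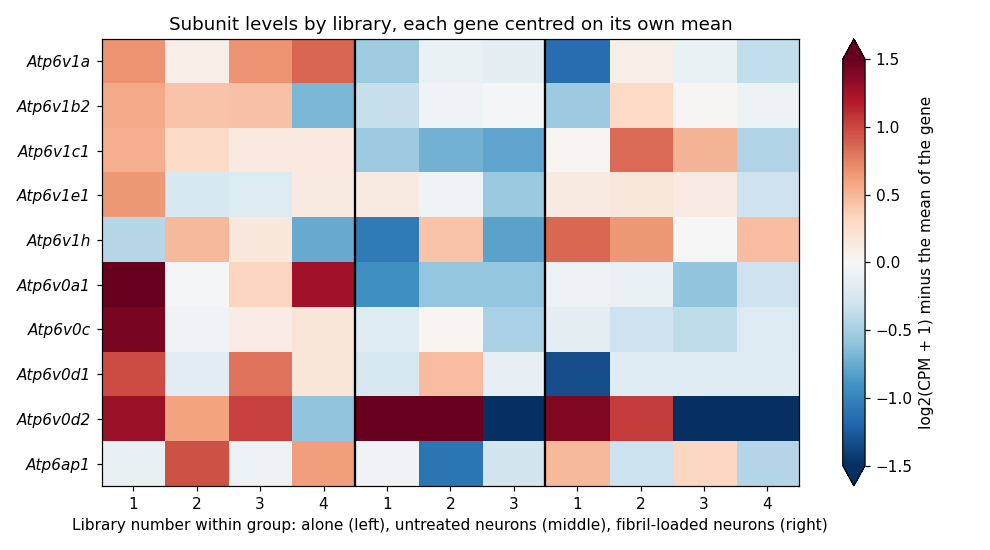
Log2(CPM + 1) of each pump gene (rows) minus its own mean over the 11 libraries (columns, numbered within each group, groups parted by vertical lines); red is above and blue below the gene's mean, and colours stop at 1.5 on either side. Library 1 of microglia alone is red for 8 genes, and Atp6v0d2 is dark blue in the 3 co-culture libraries where it had no count.

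The promoter of the called gene is shown with those of the 2 members whose promoter windows held TCACGTG, the core of the CLEAR element through which TFEB and related factors act on lysosomal genes. RefSeq windows of 250 bases before to 50 after a start site (GRCm38.p6) were found for 6 of the 10 members, with 8 windows in all. CACGTG was in 2 of the 8, and TCACGTG, searched on both strands and containing CACGTG, was in the same windows; over all 32851 promoters 7.15% and 3.77% held them. In Atp6v1a the match began 132 bases before the start site and in Atp6v0d1 it spanned the start site. That Atp6v1a start also lies inside the annotated gene (44085402 to 44139702), so the Atp6v1a match lies within the gene and not upstream of it. The stretches below run 5′ to 3′ on the strand of each gene, and capitals mark the match together with the base after it, since the 7-base motif was found there on both strands, offset by 1 base. The Atp6v0a1 stretch, upstream of a start inside the annotated gene, is in lower case throughout because neither motif was found there, which says only that these letters are not in this window.
Atp6v0a1, chr11:101010148-101010397, plus strand: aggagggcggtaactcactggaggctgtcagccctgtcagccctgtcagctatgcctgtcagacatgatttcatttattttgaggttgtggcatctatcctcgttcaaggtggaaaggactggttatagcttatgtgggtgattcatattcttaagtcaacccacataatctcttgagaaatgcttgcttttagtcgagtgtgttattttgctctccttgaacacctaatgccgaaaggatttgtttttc
Atp6v1a, chr16:44139306-44139461, minus strand: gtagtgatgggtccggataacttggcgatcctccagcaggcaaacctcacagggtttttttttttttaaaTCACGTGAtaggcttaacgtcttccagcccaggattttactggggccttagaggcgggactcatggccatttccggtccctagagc
Atp6v0d1, chr8:105566061-105566180, minus strand: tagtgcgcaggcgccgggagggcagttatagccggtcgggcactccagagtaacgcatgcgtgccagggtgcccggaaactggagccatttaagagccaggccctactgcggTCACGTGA
Atp6v0a1 had no match, and both members with a match, Atp6v1a and Atp6v0d1, had negative values that did not pass in edgeR over both co-cultures (log2 -0.89 and -0.70). Atp6v0c, Atp6v1e1 and Atp6ap1 had windows without a match.

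Among the other pump subunits, none passed in edgeR in any comparison. Of 8 further V1 genes 4 were in the table and tested, and 3 of them were negative over both co-cultures. Atp6v1f, a subunit of the central rotor, was at 798 ± 307 CPM in microglia alone, 505 ± 75.1 CPM with untreated and 562 ± 66.7 CPM with fibril-loaded neurons (log2 -0.59, edgeR BH-adjusted p = 0.348). The peripheral stalk gene Atp6v1g1 (log2 -0.42) and the rotor gene Atp6v1d (log2 -0.27) had smaller values. Of 6 further V0 genes 5 were tested and 3 were negative, among them the ring subunit Atp6v0b at 561 ± 117, 429.8 ± 126 and 392 ± 107 CPM (log2 -0.45, edgeR BH-adjusted p = 0.512). Over all 19 tested subunit genes, the 10 members included, 14 were negative with a median of -0.42, beside 54.9% negative over all genes. Without the members, the medians were -0.35 for the further V1 genes and -0.19 for the further V0 genes.

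Assembly and accessory factors were negative for 10 of 12 tested, with a median of -0.44 and 0 called. Wdr7 encodes a partner in the rabconnectin complex that reassembles the pump. It was at 34.4 ± 9.37 CPM in microglia alone, 4.30 ± 7.36 CPM with untreated and 13.8 ± 9.22 CPM with fibril-loaded neurons. The untreated libraries were at 12.8, 0.0895 and 0 CPM, so 1 library made up nearly all of that mean. Its ranges lay apart, as did those of 1.45% of genes with the co-cultures lower. Its log2 difference over both of -2.16 (SE 1.01, edgeR BH-adjusted p = 0.426) did not pass. Vma21, a chaperone of V0 assembly, had a log2 difference of -0.52. Dmxl1, a paralogue of the large rabconnectin subunit Dmxl2, had one of -0.56, and Dmxl2 had one of 0.50 (95% interval -1.20 to 2.20). Lysosomal ion channels and exchangers were negative in 4 of 9 with a median of 0.08, and Ragulator, Rag and amino acid sensing genes in 5 of 11 with a median of 0.21, with 0 called in either, beside the 54.9% negative over all genes. The Ragulator list varied with the co-culture, at 4 of 11 and a median of 0.31 with untreated neurons and 6 of 11 and -0.06 with fibril-loaded neurons. The lists were not tested against each other. The calcium channel gene Tpcn2 (log2 1.63), the chloride-proton exchanger gene Clcn3 (-0.66), the amino acid transporter gene Slc38a9 (-0.88) and the Ragulator gene Lamtor1 (0.42) had the smaller p-values of those groups and did not pass. Of the 4 CLEAR transcription factor genes 2 were negative and 2 positive, with a median of -0.00 and 0 called. Mitf was at 220.03 ± 76.2, 210.4 ± 29.6 and 184 ± 20.1 CPM and Tfe3 at 52.9 ± 20.4, 45.9 ± 27.4 and 63.3 ± 22.6 CPM. Tfeb was at 13.1 ± 5.21, 15.7 ± 16.5 and 23.2 ± 7.82 CPM (log2 0.54 over both, edgeR BH-adjusted p = 0.966).

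The genes whose pattern over the 11 libraries was nearest to the mean pattern of the 10 members were sought among 3103 genes of at least 50 CPM. Nearness was the mean absolute difference of log2(CPM + 1), each gene centred on its own mean. The scarce Atp6v0d2 had the same weight in the mean pattern as each other member. The libraries where it had no count, untreated library 3 and fibril libraries 3 and 4, had the lowest mean values (-0.67, -0.32 and -0.48). A list without Atp6v0d2 was not made. The nearest 5 were the RNA-binding protein gene Celf2 (0.177), the actin-binding coronin gene Coro1c (0.184), the heterochromatin protein gene Hp1bp3 (0.200), the endocytic receptor gene Lrp1 (0.202) and the transcriptional regulator gene Id2 (0.204). Among the members themselves, the distance of a gene from the mean of the other 9 ran from 0.250 for Atp6v0c and 0.252 for Atp6v1e1 to 0.595 for Atp6ap1, 0.645 for Atp6v1h and 1.62 for Atp6v0d2. The share of candidate genes closer to that mean was 1.35% for Atp6v1e1, 1.42% for Atp6v0c, 7.32% for Atp6v1c1 and 11.8% for Atp6v1b2. It was 17.9% for Atp6v1a, 30.2% for Atp6v0d1, 39.6% for Atp6v0a1, 64.8% for Atp6ap1, 73.2% for Atp6v1h and 99.4% for Atp6v0d2. The scarce Atp6v0d2 thus stood farthest from the rest, while Atp6v1c1 (0.323) and Atp6v0d1 (0.435), at lower levels than Atp6ap1, lay nearer than it did.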

How the data were processed

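Libraries were made with a 3′ mRNA kit. STAR, Partek and DESeq2 appear with mm10 in the submitters' processing notes; versions, annotation and use of strand are not given in the sources used here. The authors deposited raw counts per gene symbol for all 11 libraries (8253070 to 16802451 each). Their second table holds normalized counts rounded to whole numbers, classed here as a score, per the deposited values: 99.0 to 100% of entries in each library lay within 0.51 of the count over a single size factor.

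From the counts, edgeR 4.0.16 (R 4.3.3) fitted all libraries with group as the sole term after filterByExpr and TMM scaling; quasi-likelihood tests were two-sided, with BH-adjusted p-values over 11276 genes and calls at 0.05. The average of both co-cultures was a contrast of that fit. CPM used TMM-scaled library sizes and are given as mean ± SD. The SE is the log2 fold change over the square root of F. A transcript gives about 1 tag in 3′ sequencing whatever its length, so CPM were not divided by length.

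Groups came from the labels, and libraries are numbered in order of deposition. The members, the gene lists and the naming rule were chosen with earlier results of these data known. All 10 members are described, with isoforms of members. Of each other pump or lysosome list, the genes called are named, or otherwise up to 3 with the smallest p over both co-cultures. Dmxl2 was added beside its paralogue Dmxl1. The code was tested on simulated data. Alternatives tried were a mean of at least 5 CPM, the filter dropped, RLE scaling, DESeq2 1.42.0, limma 3.58.1 on log2(score + 1), the 2 compared groups only, Rn45s left out, and libraries left out. Loci and promoters are from RefSeq on GRCm38.p6, and all 10 members matched a locus.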

Additional observations from a re-analysis of the deposited data

Results flagged for a closer look

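In 4 of the 22 sets of 4 libraries examined, 1 library lay far from the other 3 for its gene; chance does this in about 1 of 20 sets. Atp6v0c in library 1 of microglia alone was at 3307 CPM, where the others had 1180.2 to 1397 CPM. Atp6v1b2 in library 4 of microglia alone was at 221 CPM, below 476 to 525 CPM in the others. Atp6v1e1 in library 4 with fibril-loaded neurons was at 179.9 CPM, below 243 to 249.6 CPM. Atp6v0d1 in library 1 with fibril-loaded neurons was at 25.3 CPM, below 56.8 to 57.2 CPM; that library had the fewest genes with a count, 9157.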

How the results depend on the processing

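Atp6v0a1 over both co-cultures stayed called in 17 of 19 alternatives. The call was lost without library 1 of microglia alone. It was also lost without the fewest-gene library of each group (log2 -1.07, edgeR BH-adjusted p = 0.139). Library 1 is the fewest-gene library of microglia alone (9784 genes with a count), so both losses came in fits without it. With untreated neurons Atp6v0a1 stayed called in 8 of 16 alternatives (adjusted p from 2.08e-04 in DESeq2 to 0.293 in edgeR). Of 680 alternative values for single members, 635 kept direction and call, 27 turned direction, 10 lost and 8 gained a call. The cause was not tested. Genes called (72 untreated, 36 fibril, 116 both, each against microglia alone, and 0 fibril against untreated) came to 234, 164, 341 and 5 without the filter, with 1 member for fibril and 3 for both. DESeq2 gave 468, 236, 511 and 187, with 2 members for fibril and 3 for both. For untreated, a mean of at least 5 CPM gave 47 genes and 0 members, and the 2 groups alone gave 41 and 0. Without the fewest-gene libraries, untreated gave 29 genes, 0 members and a median of -0.23, both gave 59 and 0, and fibril against untreated gave 1; Atp6v1e1 was at 0.11 for fibril, Atp6v0d2 at -0.0329 for both and Atp6v1a at 0.00705 for fibril against untreated. With limma, Atp6v0d2 was at -1.31 for untreated and -2.20 for both, and Atp6v1c1 at -0.0588 for fibril.

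With each library left out in turn, genes called ran from 32 to 76 for untreated, 23 to 42 for fibril, 55 to 106 for both and 0 to 1 for fibril against untreated, and members called from 0 to 1 for untreated and both. Without library 1, 2 or 4 of microglia alone these were 32, 36 and 41 genes for untreated and 55, 71 and 72 for both; fibril had 23 without library 2. Without untreated library 1 untreated had 46, and without untreated library 3 it had 37 and both had 77. Log2 values that turned ran from -0.22 to 0.21 for Atp6v1c1 and -0.18 to 0.15 for Atp6v1e1 for fibril. For both they ran from -0.27 to 0.0551 for Atp6v1e1, -0.16 to 0.41 for Atp6v1h and -0.24 to 0.44 for Atp6v0d2. For fibril against untreated they ran from -0.22 to 0.14 for Atp6v1a, -0.18 to 0.0691 for Atp6v0c, -0.0423 to 0.23 for Atp6v1b2 and -0.0012 to 0.34 for Atp6v1e1. The labels give no replicate numbers, but library IDs in the titles fall into 4 sets, and the labels do not say what a set is. Deviations from group means correlated above 0.1 for 5 of 10 pairs of libraries within a set and 5 of 30 across sets (3111 genes). The median r was 0.099 within sets and -0.055 across them, so libraries of a set deviated alike more often. The main fit left the sets out because the labels do not describe them. With the set as a replicate block, chosen after seeing the data, genes called were 95 for untreated, 66 for fibril, 177 for both and 0 between co-cultures; for both, 2 members were called, Atp6v0a1 (log2 -1.25, edgeR BH-adjusted p = 0.0144) and Atp6v1a (-0.89, 0.0309). Under the block Atp6v0d2 was at -3.95 for untreated and -4.49 for both, and Atp6v1c1 at -0.0319 for fibril. Groups of 3 and 4 libraries with this spread limit what could be called, and Atp6v0d2 is too scarce at this depth for a direction.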
